A study of Mus musculus with 4 samples.

Results

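Cycling hormone-sensing luminal cells of the mouse mammary gland were 101 of 9927 hormone-sensing cell barcodes and of 36884 barcodes in all. A barcode marks 1 droplet, usually 1 cell. Each barcode was scored on 3 panels of 8 genes as the mean z-score of log2(1 + UMIs per 10000), where a UMI (unique molecular identifier) stands for 1 captured RNA molecule. The hormone-sensing panel was Prlr, Esr1, Pgr, Areg, Cited1, Foxa1, Fxyd2 and Ly6a. A hormone-sensing barcode scored above 0.3 on it and at least 0.5 above both the basal and the luminal progenitor panel. It was counted as cycling when its UMIs of Mki67, Top2a, Birc5, Ube2c and Cdk1 summed to at least 4. These panel and cycle genes chose the members, so their levels are a description only.

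The cells were sorted by flow cytometry from adult C57BL/B6 mice and profiled by 10x 3′ single-cell RNA sequencing. Zeb1 MSKO mice gave 1 library at 8 weeks and 1 at 9 weeks of age, with 9693 and 9774 barcodes, and control mice gave the same, with 9790 and 7627 barcodes. The labels neither expand MSKO nor name its Cre driver, the sort markers or the number of animals pooled. Library totals ran from 80853204 to 122122443 UMIs. Genotype is thus compared over 2 libraries each, and age cannot be told apart from preparation. Zeb1, a zinc-finger repressor of epithelial junction genes, had 6.89 and 0.704 CPM (UMIs of the gene per 1000000 UMIs) over all barcodes of the Zeb1 MSKO libraries at 8 and 9 weeks, against 3.84 and 0.501 CPM in the control libraries, and 0, 2, 0 and 0 UMIs in the cycling barcodes in the same order. Reads at 3′ ends do not check a deletion elsewhere in the gene.

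The luminal layer of the mammary duct holds hormone-sensing cells, which carry the receptors for estrogen, progesterone and prolactin, and luminal progenitors, which give rise to milk-producing cells. Hormone-sensing cells relay hormone signals to their neighbours through secreted factors such as amphiregulin (Areg), and cells with high estrogen receptor are known to divide rarely in the adult gland. A dividing cell copies its DNA in S phase and then, in G2 and mitosis, builds a spindle with a gene set that includes Cdk1, the kinase that drives entry into mitosis, Top2a, a topoisomerase that untangles DNA, and Mki67, a protein of the mitotic chromosome surface.

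The members held genes of division and of the hormone-sensing panel. Of the 101 barcodes, 72 held a UMI of Mki67, 71 of Top2a, 86 of Birc5, a chromosomal passenger subunit, 72 of Ube2c, a mitotic ubiquitin-conjugating enzyme, and 83 of Cdk1. All 101 held Prlr, the prolactin receptor, and Cited1, a transcription co-regulator, 99 held Areg and 86 held Pgr, the progesterone receptor. Esr1, the estrogen receptor alpha gene, was seen in 42. Genes of the basal and luminal progenitor panels were seen to very unequal degrees. Of the progenitor panel Csn3 was seen in 68, Cd14 in 42, Ltf in 41, Trf in 41, Aldh1a3 in 18, Elf5 in 13 and Kit in 8 members. Of the basal panel Acta2 was seen in 73, Krt17 in 48, Krt14 in 38, Cnn1 in 20, Krt5 in 12, Myh11 in 7, Oxtr in 7 and Trp63 in 3. The abundant milk-protein gene Wfdc18 was seen in 90 members, at 470.1 and 349 CPM in the Zeb1 MSKO libraries at 8 and 9 weeks and 321 and 260.3 CPM in the controls, against a mean of 8464 CPM in cycling luminal progenitor barcodes.

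Of the 8 panel genes, Cited1 alone was higher in the cycling barcodes of all 4 libraries. Cited1 reached 1293 and 2278 CPM in cycling barcodes of the Zeb1 MSKO libraries and 1474 and 1467 CPM in those of the control libraries, against 316, 1510, 584 and 373 CPM in the other hormone-sensing barcodes in the same order. Prlr lay the other way, at 632, 840.4, 915 and 1041 CPM in cycling barcodes against 1696, 1603, 1767 and 2510 CPM in the others. Prlr and Esr1 were lower in the cycling barcodes of all 4 libraries, with no overlap between the states. Esr1 had 8.11, 30, 13.7 and 16.6 CPM in cycling barcodes against 36.1, 49.4, 41 and 37 CPM in the others, and Pgr 97.3, 62.9, 112 and 122 CPM against 158, 85.7, 156 and 141 CPM. Fxyd2, a sodium pump regulator, had 279.6, 79.8, 129 and 288 CPM in cycling barcodes against 1073, 119.9, 1231 and 1924 CPM. Areg and Foxa1, the pioneer factor of estrogen receptor binding, had no common direction over the 4 libraries. The panel chose the barcodes, so these levels describe the members and were not tested.

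The members were deep barcodes. Their median was 22523 and 27006 UMIs in the Zeb1 MSKO libraries at 8 and 9 weeks and 24360 and 20899 UMIs in the control libraries, against 15081, 17262.5, 14030 and 15119 UMIs in the other hormone-sensing barcodes. A nearest-neighbour score against simulated doublets, set to call about 8% of all barcodes, called 4 of 11 and 15 of 67 members in the Zeb1 MSKO libraries and 9 of 15 and 1 of 8 in the controls. That is 28.7% of members, against 7.54% of the other hormone-sensing barcodes. The part of depth and of doublets in the membership was not tested. Without the called doublets 7, 52, 6 and 7 members remained. The sequences of 3 members also occurred in another library. At the cut, 19 hormone-sensing barcodes had exactly 3 cycle UMIs and 15 members had exactly 4. Ccnb2, the cyclin B2 gene, which the rule did not use, stood at 36.0 CPM in the members with 4 and 10.1 CPM in the barcodes with 3. The lowest margin of a member over the next panel was 0.59.

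The cycling state was rare in every library. Cycling barcodes made up 11 of 1294 (0.85%, Wilson 95% interval 0.475 to 1.52) and 67 of 3443 (1.95%, 1.54 to 2.46) hormone-sensing barcodes of the Zeb1 MSKO libraries at 8 and 9 weeks. In the control libraries they were 15 of 2762 (0.543%, 0.329 to 0.894) and 8 of 2428 (0.329%, 0.167 to 0.649). Both Zeb1 MSKO libraries lay above both controls, and the Zeb1 MSKO library at 9 weeks held 67 of the 101 members. The share averaged 1.4% ± 0.775 in Zeb1 MSKO and 0.436% ± 0.151 in control libraries (SD, n = 2 each). The difference of 0.962 percentage points had p = 0.333, the smallest that an exact two-sided permutation of 2 against 2 libraries allows. It was 0.414 without the Zeb1 MSKO library at 9 weeks and 1.51 without the one at 8 weeks. With every barcode thinned to 2500 UMIs and a cut of 2 cycle UMIs, the shares were 0.464% and 1.07% in Zeb1 MSKO and 0.29% and 0.124% in control libraries. Intervals cover counting error only.

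**Figure D1:**
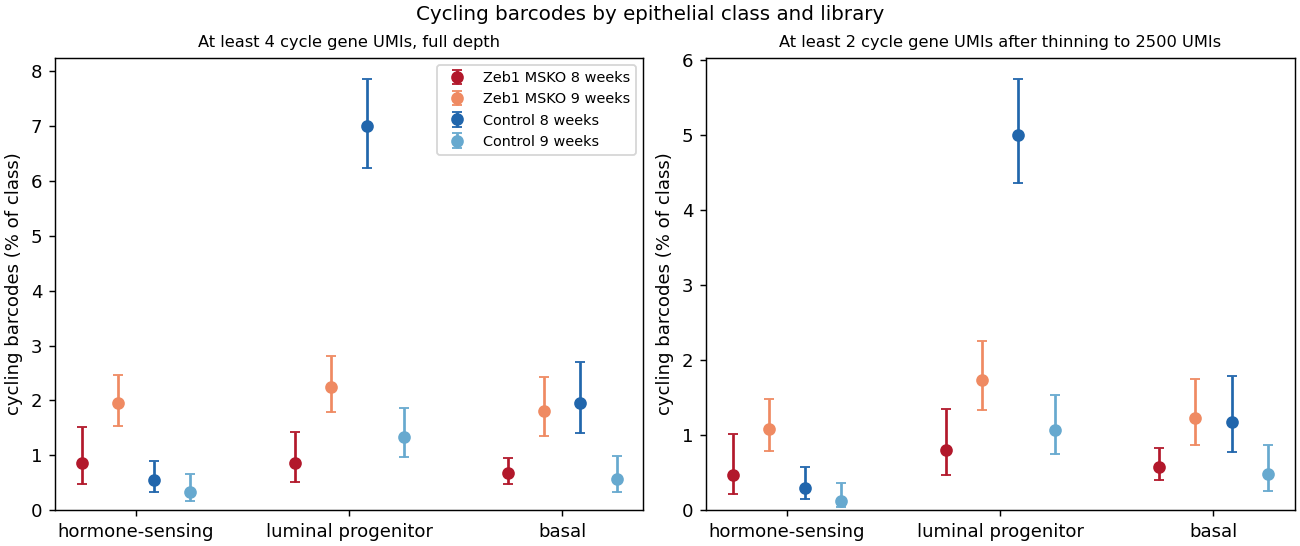
Share of cycling barcodes (%, y axis) in the hormone-sensing, luminal progenitor and basal classes for each of the 4 libraries, at full depth (left) and after thinning to 2500 UMIs per barcode (right); points are libraries and bars are Wilson 95% intervals. Hormone-sensing shares run from 0.329% to 1.95% at full depth, and the luminal progenitors of the control library at 8 weeks stand highest at 7.01%.

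The same 5 genes can be read without a cut per barcode. Over all hormone-sensing barcodes they summed to 18.6 and 27.7 CPM in the Zeb1 MSKO libraries at 8 and 9 weeks, against 16.2 and 6.95 CPM in the control libraries. The mean was 23.2 ± 6.48 CPM in Zeb1 MSKO and 11.6 ± 6.55 CPM in control libraries (SD, n = 2 each; p = 0.333, exact permutation test, two-sided). The log2 ratio was 0.51 and 1.74 when the control library of 9 or of 8 weeks was left out. It was 0.34 for the summed S phase list and 0.05 for the G2 and M phase list.

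Hormone-sensing barcodes cycled less often than luminal progenitor barcodes of the same library in all 4 libraries, by margins of very unequal size. The luminal progenitor shares were 0.855% and 2.24% in the Zeb1 MSKO libraries at 8 and 9 weeks and 7.01% and 1.34% in the control libraries. The hormone-sensing minus luminal progenitor differences were -0.00462, -0.295, -6.47 and -1.01 percentage points, with a mean of -1.94 ± 3.04 (SD, n = 4). A two-sided exact sign-flip test over libraries gave p = 0.13, the smallest that 4 pairs allow, and without the control library at 8 weeks the mean was -0.435. Against basal barcodes, with 0.679%, 1.81%, 1.95% and 0.569% cycling, hormone-sensing shares were lower in 2 of 4 libraries (mean difference -0.335, p = 0.625, exact sign-flip test). Basal barcodes were shallower, and with all barcodes thinned to 2500 UMIs the hormone-sensing shares were lower in 4 of 4 libraries, by -0.109, -0.157, -0.882 and -0.351 percentage points (mean -0.375, p = 0.13, exact sign-flip test). Thinning thus turned the direction in both Zeb1 MSKO libraries.

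Members differed in their balance of S phase and G2 or M phase genes. The 42 genes of an S phase list summed to between 5 and 189 UMIs per member (median 55), and the 47 genes of a G2 and M phase list to between 7 and 354 (median 79). Other hormone-sensing barcodes had medians of 5 and 12 UMIs. In 36 members the S phase list outweighed the G2 and M phase list and in 65 members the reverse held. The 2 sums per 10000 UMIs were nearly unrelated over the 101 members (Spearman rho 0.06, a description across barcodes of 4 libraries that share their depth). The S phase list led in 2 of 11 and 30 of 67 members of the Zeb1 MSKO libraries at 8 and 9 weeks, and in 3 of 15 and 1 of 8 members of the control libraries.

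**Figure D2:**
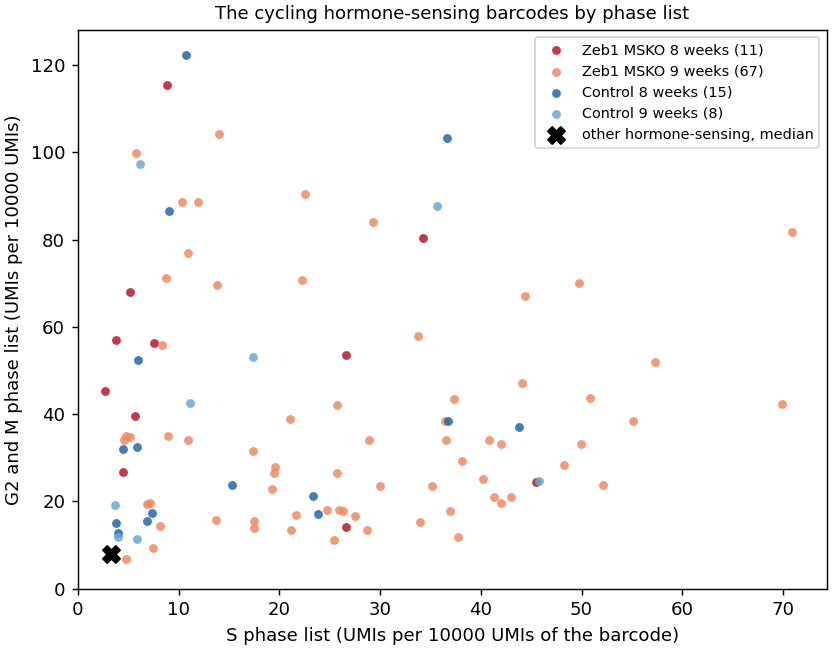
Each point is 1 of the 101 cycling hormone-sensing barcodes, with its S phase list UMIs per 10000 UMIs (x axis) against its G2 and M phase list UMIs per 10000 (y axis), coloured by library; the black cross marks the medians of the other hormone-sensing barcodes. Members spread along both axes, and the Zeb1 MSKO library at 9 weeks supplies most points at high S phase values.

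UMIs were summed per library for cycling and for other hormone-sensing barcodes, and the 8 sums were compared with edgeR's quasi-likelihood test with the library as a block (Benjamini-Hochberg adjusted p under 0.05). Of 11335 genes tested, 846 were higher (7.46%) and 905 lower (7.98%) in the cycling barcodes, and the median log2 fold change over all tested genes was -0.06. Without called doublets 1161 of 10850 tested genes were called, 558 higher and 603 lower. Against other barcodes matched on depth 1080 of 7325 were called, 613 higher and 467 lower. Genes of the division cycle travel with the genes that set the gate, so their rise describes the gate.

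The division programme was broad. Of the 47 G2 and M phase genes 45 passed the filter on low counts and 41 rose, with a list median of 4.60 on the log2 scale. Without called doublets 34 passed, 29 rose and the median was 2.98. Of the 42 S phase genes 41 passed and 39 rose, with a median of 2.76. Ccnb2 had 227 and 89.5 CPM in cycling barcodes of the Zeb1 MSKO libraries and 167 and 155 CPM in those of the controls, against 0.585, 0.171, 0.746 and 0.246 CPM in the other barcodes. The states were far apart in each library (log2 fold change 8.41 ± 0.26 SE, edgeR adjusted p = 1.36e-51). Hmmr, a spindle-associated hyaluronan receptor, rose most of the listed genes (log2 8.77). Fam64a (9.16) and Cdkn3 (8.80), a phosphatase of cyclin-dependent kinases, led among genes outside the lists. These included Plk1, the polo-like mitotic kinase (6.54), and 2810417H13Rik (8.04), which had 190.5 and 281 CPM in cycling barcodes of the Zeb1 MSKO libraries and 241 and 310.1 CPM in those of the controls, against 1.54, 0.906, 1.09 and 0.273 CPM in the others.

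DNA synthesis genes followed. Tk1, the S phase thymidine kinase, had 89.2 and 161 CPM in cycling barcodes of the Zeb1 MSKO libraries and 82.2 and 88.6 CPM in those of the controls, against 2.45, 6.56, 1.78 and 1.12 CPM in the others (log2 5.04 ± 0.23 SE, edgeR adjusted p = 2.13e-36). Of 18 nucleotide synthesis genes 13 rose and none fell, with a median of 1.25. Those that rose included makers of deoxynucleotides, such as Rrm2 (5.37), the ribonucleotide reductase subunit, and Tyms (3.37), thymidylate synthase, while the purine and pyrimidine pathway genes Gart (0.09), Paics (0.17) and Cad (0.13) did not pass. Of 20 chromatin and tubulin genes of dividing cells 18 rose (median 1.83), among them the histone variant gene H2afz (2.76), Stmn1, a regulator of microtubule dynamics (4.76), and Lmnb1, lamin B1 (3.57). Of 16 ribosome biogenesis and MYC genes 6 rose by small amounts (median 0.33), such as Dkc1 (1.12) and Npm1 (0.45), and Myc itself had a log2 difference of -0.08 (edgeR adjusted p = 0.939).

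Among the cyclins, inhibitors and E2F-RB genes, 28 of 29 passed the filter and 17 rose, with a median of 1.01. Without called doublets 11 of 23 rose (median 0.68), where 558 of all 10850 tested genes did. When the Zeb1 MSKO library of 9 weeks was left out 8 of 27 rose, where 529 of all 11265 tested genes did. Ccnd1, cyclin D1, which links growth and hormone signals to the cycle, had 178 and 228 CPM in cycling barcodes of the Zeb1 MSKO libraries and 244 and 327 CPM in those of the controls, against 79.1, 166, 97.9 and 94.3 CPM in the others. All 4 cycling sums lay above all 4 others (log2 0.98 ± 0.14 SE, edgeR adjusted p = 1.29e-08). Its partner kinase Cdk4 rose (0.69), and Ccnd3 did not pass (0.00). Of the inhibitors, Cdkn2a rose (1.56 ± 0.32 SE, edgeR adjusted p = 5.6e-05), with 4.05 and 40.8 CPM in cycling barcodes of the Zeb1 MSKO libraries and 32.9 and 11.1 CPM in those of the controls, against 1.81, 13.7, 6.29 and 7.83 CPM. A 3′ count does not separate its p16 and p19 transcripts. Cdkn2c and Cdkn2d (0.94) also rose, but neither passed without the Zeb1 MSKO library at 9 weeks (log2 1.12 and 0.72, edgeR adjusted p of 0.159 and 0.147). Cdkn1a, the p21 inhibitor, had a log2 difference of 0.15 and Cdkn1b, the p27 inhibitor, of 0.00, and neither passed.

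**Figure D3:**
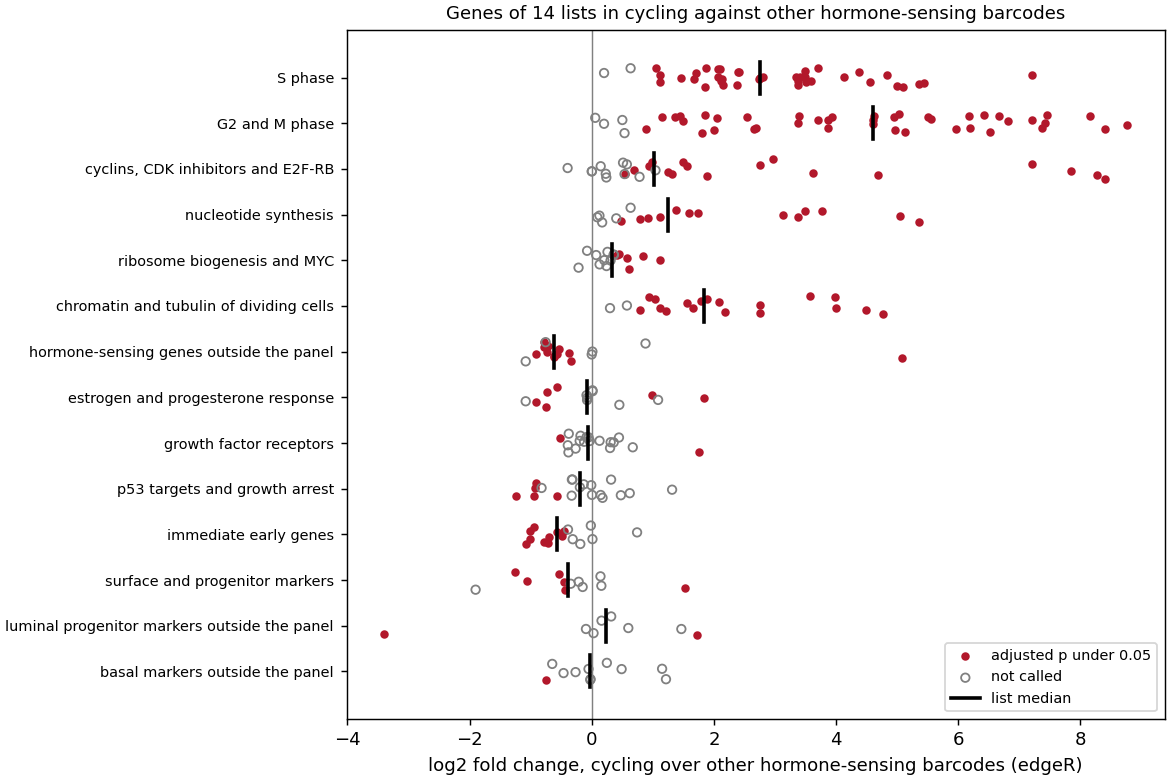
Log2 fold change (x axis, cycling over other hormone-sensing barcodes, edgeR) of every tested gene of 14 lists, 1 point per gene; filled points have an adjusted p under 0.05, open points do not, and black bars are list medians. The division lists lie to the right of 0, with the G2 and M phase list farthest at a median of 4.60, and in the hormone-sensing list 3 of 17 genes lie to the right of 0, Upk3a farthest at 5.09.

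The bases before the start of the 5 genes that set the gate were searched for the letters of 1 promoter element. Genes of G2 and mitosis are known to carry the CHR element near the start, whose letters are TTTGAA or TTTAAA on either strand. In RefSeq promoters of GRCm38.p6, 250 bases before the start, these letters occur in 5 of 5 gate genes, in 20 of 41 matched G2 and M phase genes (48.8%), in 7 of 30 matched S phase genes (23.3%) and in 7599 of all 27025 genes (28.1%). A match is a description, not a site. The 120 bases before the start of 4 gate genes and of Upk3a, the gene with the lowest p outside the gate, are given 5′ to 3′ on the gene's strand, with the letters in capitals. Their positions are Ube2c chr2:164769809-164769928 (plus), Mki67 chr7:135716380-135716499 (minus), Cdk1 chr10:69352913-69353032 (minus), Top2a chr11:99024190-99024309 (minus) and Upk3a chr15:85017021-85017140 (plus).
Ube2c: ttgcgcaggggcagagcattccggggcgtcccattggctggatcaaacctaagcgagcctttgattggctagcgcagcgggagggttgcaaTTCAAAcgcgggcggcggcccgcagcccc
Mki67: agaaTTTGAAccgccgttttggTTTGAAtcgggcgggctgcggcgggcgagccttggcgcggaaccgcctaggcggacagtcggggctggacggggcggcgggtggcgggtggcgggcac
Cdk1: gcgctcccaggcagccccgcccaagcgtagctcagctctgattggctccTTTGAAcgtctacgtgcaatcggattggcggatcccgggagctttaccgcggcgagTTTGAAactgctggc
Top2a: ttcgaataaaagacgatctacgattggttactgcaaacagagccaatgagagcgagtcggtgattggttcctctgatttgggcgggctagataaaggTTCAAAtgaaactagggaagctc
Upk3a: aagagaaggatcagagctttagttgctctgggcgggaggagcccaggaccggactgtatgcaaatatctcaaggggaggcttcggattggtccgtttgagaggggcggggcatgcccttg
In these windows Mki67 and Cdk1 hold the letters at 2 places each and Ube2c and Top2a at 1. Birc5 holds them only farther out, at base -220, and the Upk3a window holds none.

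Most of the tested genes of a hormone-sensing list, which also holds keratins of simple epithelium, were lower in the cycling barcodes. Upk3a was far higher. Of 18 such genes outside the panel 17 passed the filter, 11 fell and 1 rose, with a median of -0.61. Against depth-matched barcodes 6 of 14 fell, 1 rose and the median was -0.48, where 467 of all 7325 tested genes fell and 613 rose. An edgeR interaction, described below, compared the cycling effect with that in luminal progenitor barcodes. There 2 of 17 had a higher and 1 a lower effect in hormone-sensing barcodes, with a median of -0.18. Krt18, a simple-epithelium keratin, had 5033 and 3141 CPM in cycling barcodes of the Zeb1 MSKO libraries and 5393 and 5288 CPM in those of the controls, against 8577, 4398, 7740 and 9038 CPM in the others. It was lower in every library (log2 -0.78 ± 0.08 SE, edgeR adjusted p = 7.09e-14). Its partner Krt8 fell by 0.61 and Krt19 by 0.37, and Krt19 did not pass against depth-matched barcodes (edgeR adjusted p = 0.0985). The luminal transcription factor genes Gata3 (-0.71) and Tbx3 (-0.79) and the secretory factor gene Xbp1 (-0.73) fell. Stc2, a secreted glycoprotein gene, had 344, 277, 447 and 371 CPM in cycling barcodes against 342, 241, 380.5 and 344 CPM in the others (log2 0.01, edgeR adjusted p = 0.969).

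Targets of the steroid receptors had no common direction. Of 15 estrogen and progesterone response genes 14 passed, 2 rose and 4 fell, with a median of -0.07. Of all tested genes 7.46% rose and 7.98% fell. Ccnd1 rose, as did the glucocorticoid and progesterone target Fkbp5 (1.84), though Fkbp5 had 8.22 to 12.2 CPM in cycling barcodes and did not pass without called doublets (edgeR adjusted p = 0.0682). Tgm2 (-0.75), Xbp1, Calca (-0.91) and the secreted ligand Wnt4 (-0.56) fell. Wnt4 did not pass without the control library at 8 weeks (-0.37, edgeR adjusted p = 0.287), nor Calca without the Zeb1 MSKO library at 9 weeks (-0.45, edgeR adjusted p = 0.274). Tnfsf11, the RANK ligand gene through which progesterone acts on neighbours, had no UMI in the members. Of 20 growth factor receptor genes 18 passed, with 1 higher and 1 lower, beside the same shares of all tested genes. Fgfr2 fell (-0.52), not passing without called doublets (edgeR adjusted p = 0.0733), and Fzd1 had 53.3% of its member UMIs in 1 barcode.

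Upk3a, a uroplakin of the urothelial membrane (mm10 chr15:85017141-85022547, plus strand), was the called gene with the lowest p. Upk3a had 401 and 651 CPM in cycling barcodes of the Zeb1 MSKO libraries at 8 and 9 weeks and 2009 and 4053 CPM in those of the control libraries, against 13.1, 21.8, 61.3 and 65.1 CPM in the other hormone-sensing barcodes. The lowest cycling sum lay above the highest of the others, and each library kept a wide gap. The log2 fold change was 5.09 ± 0.13 SE (edgeR adjusted p = 9.48e-60), 5.06 without called doublets and 4.36 against depth-matched barcodes. Without called doublets the cycling levels were 344, 614, 3144 and 4294 CPM. Upk3a was named as a marker of these cells from earlier results of these data, so its rise is not independent evidence.

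The level came from a subset of members. A UMI of Upk3a was present in 58 of 101 members (57.4%), against 6.86% of other hormone-sensing barcodes and 0.736% of luminal progenitor barcodes, which should have little of it (median depths 25187, 15301 and 8049 UMIs). After thinning to 10000 UMIs the shares were 51%, 5.29% and 0.726%, with 5, 1660 and 7423 shallower barcodes left out. At least 10 UMIs were found in 2 of 11 and 24 of 67 members of the Zeb1 MSKO libraries and in 8 of 15 and 6 of 8 members of the controls. These 40 members held 98.3% of the Upk3a UMIs, and 7 members lay near the cut of 10, between 5 and 19 UMIs. The cut was chosen after the values were seen.

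Read the other way, hormone-sensing barcodes with at least 10 Upk3a UMIs were often in cycle. They cycled in 2 of 7 (28.6%) and 24 of 38 (63.2%) cases in the Zeb1 MSKO libraries and in 8 of 39 (20.5%) and 6 of 35 (17.1%) in the controls. Below 10 UMIs the shares were 0.699%, 1.26%, 0.257% and 0.0836%. In total 40 of 119 (33.6%) stood against 61 of 9808 (0.622%). The median depth was 19375 UMIs for the Upk3a-high barcodes and 15302 UMIs for the rest. Over rising cycle UMIs (0, 1, 2 or 3, and 4 or more), Upk3a stood at 39.8, 323, 3353 and 4053 CPM in the control library at 9 weeks, and at 14.2, 98.0, 61.1 and 651 CPM in the Zeb1 MSKO library of that age, where the order was not steady.

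**Figure D4:**
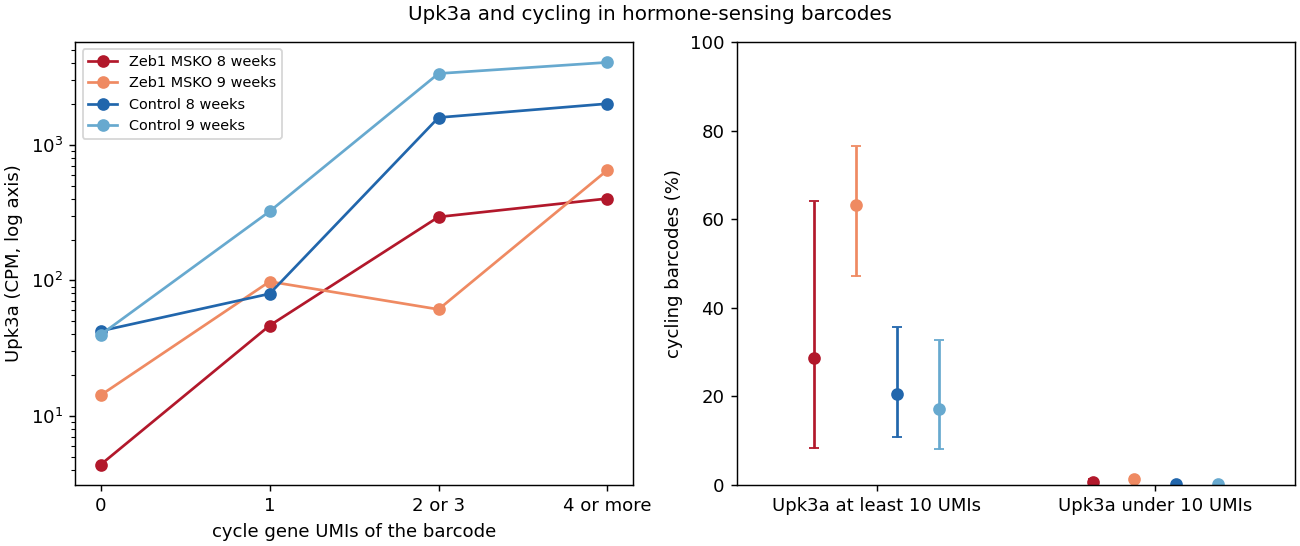
Left, Upk3a level (CPM, log axis) of hormone-sensing barcodes grouped by their cycle gene UMIs, 1 line per library. Right, share of barcodes that cycle (%) among hormone-sensing barcodes with at least 10 and with under 10 Upk3a UMIs, points for libraries with Wilson 95% intervals; the shares run from 17.1% to 63.2% on the left side and stay at or under 1.26% on the right side.

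Genes outside the division lists rose beside Upk3a. Fgb, the fibrinogen beta chain (chr3:83040141-83049863, minus strand), had 308 and 259 CPM in cycling barcodes of the Zeb1 MSKO libraries and 707 and 1379 CPM in those of the controls, against 73.1, 112, 150.4 and 98.4 CPM in the others (log2 2.18 ± 0.15 SE, edgeR adjusted p = 2.93e-23). Pir, pirin, an iron-binding nuclear protein (chrX:164269371-164373011, plus strand), had 28.4, 34.5, 101 and 255 CPM against 8.3, 8.37, 23.4 and 17.3 CPM (2.41 ± 0.22 SE, edgeR adjusted p = 4.45e-17). For both genes every cycling sum was above every other sum. S100a14, a calcium-binding S100 protein, had 211, 150.1, 386 and 249 CPM against 68.1, 50.4, 50.7 and 43.2 CPM (2.02). Acot7, an acyl-CoA thioesterase (2.04), Grb14, an adaptor that inhibits insulin receptor signalling (1.97), Crym, a thyroid hormone-binding protein (1.57), and Mt2, a metallothionein (1.76), rose too. Each of these 7 genes kept its call without called doublets, against depth-matched barcodes and without each library in turn.

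Several of these genes were high in the Upk3a-high barcodes in either state, a split by the same cut given as levels only. Fgb stood at 948 CPM in cycling barcodes with at least 10 Upk3a UMIs and 42.5 CPM in cycling barcodes with fewer. Among other hormone-sensing barcodes it stood at 1392 and 101 CPM on the 2 sides of the cut. Pir had 121 and 17.7 CPM in cycling and 216 and 12.3 CPM in other barcodes in the same order, Grb14 185, 38.6, 150.3 and 22.1 CPM, and Crym 253, 59.5, 210.5 and 52.3 CPM. Within each state all 4 genes stood higher above the cut than below it in these sums. Between the states, Grb14 and Crym were higher in cycling than in other barcodes on both sides of the cut in these sums. In these sums Fgb was lower in cycling barcodes on both sides, and Pir was lower above the cut and higher below it. Above the cut Fgb was lower in cycling barcodes of the Zeb1 MSKO library at 9 weeks alone (617 against 863 CPM). It was higher in that of 8 weeks (1279 against 1059 CPM) and in the control libraries (1399 against 1265 and 1875 against 1824 CPM). The Zeb1 MSKO library at 9 weeks held 24 of the 40 cycling and 14 of the 79 other barcodes above the cut. Pir above the cut was higher in cycling barcodes of the Zeb1 MSKO library at 8 weeks and the control library at 9 weeks. Single libraries did not all keep these orders. Grb14 above the cut had 83.8 CPM in cycling against 113 CPM in other barcodes of the Zeb1 MSKO library at 8 weeks. Acot7 had 119.6, 64.7, 54.1 and 19.7 CPM and Mt2 2933, 883, 1499.9 and 591 CPM. In the Zeb1 MSKO library at 8 weeks, with 2 members above the cut, the order differed, at 83.8, 100.5, 45.1 and 33.5 CPM for Acot7 and 1174, 1065, 1599.8 and 311 CPM for Mt2. It also differed for Mt2 in the Zeb1 MSKO library at 9 weeks, at 3138, 897, 1004 and 1059 CPM. For Acot7 it differed in the control library at 8 weeks, at 142, 44.0, 63.5 and 18.2 CPM. The panel gene Fxyd2 had 35.0, 178, 225 and 957 CPM. The classes held 40, 61, 79 and 9747 barcodes, from all 4 libraries.

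**Figure D5:**
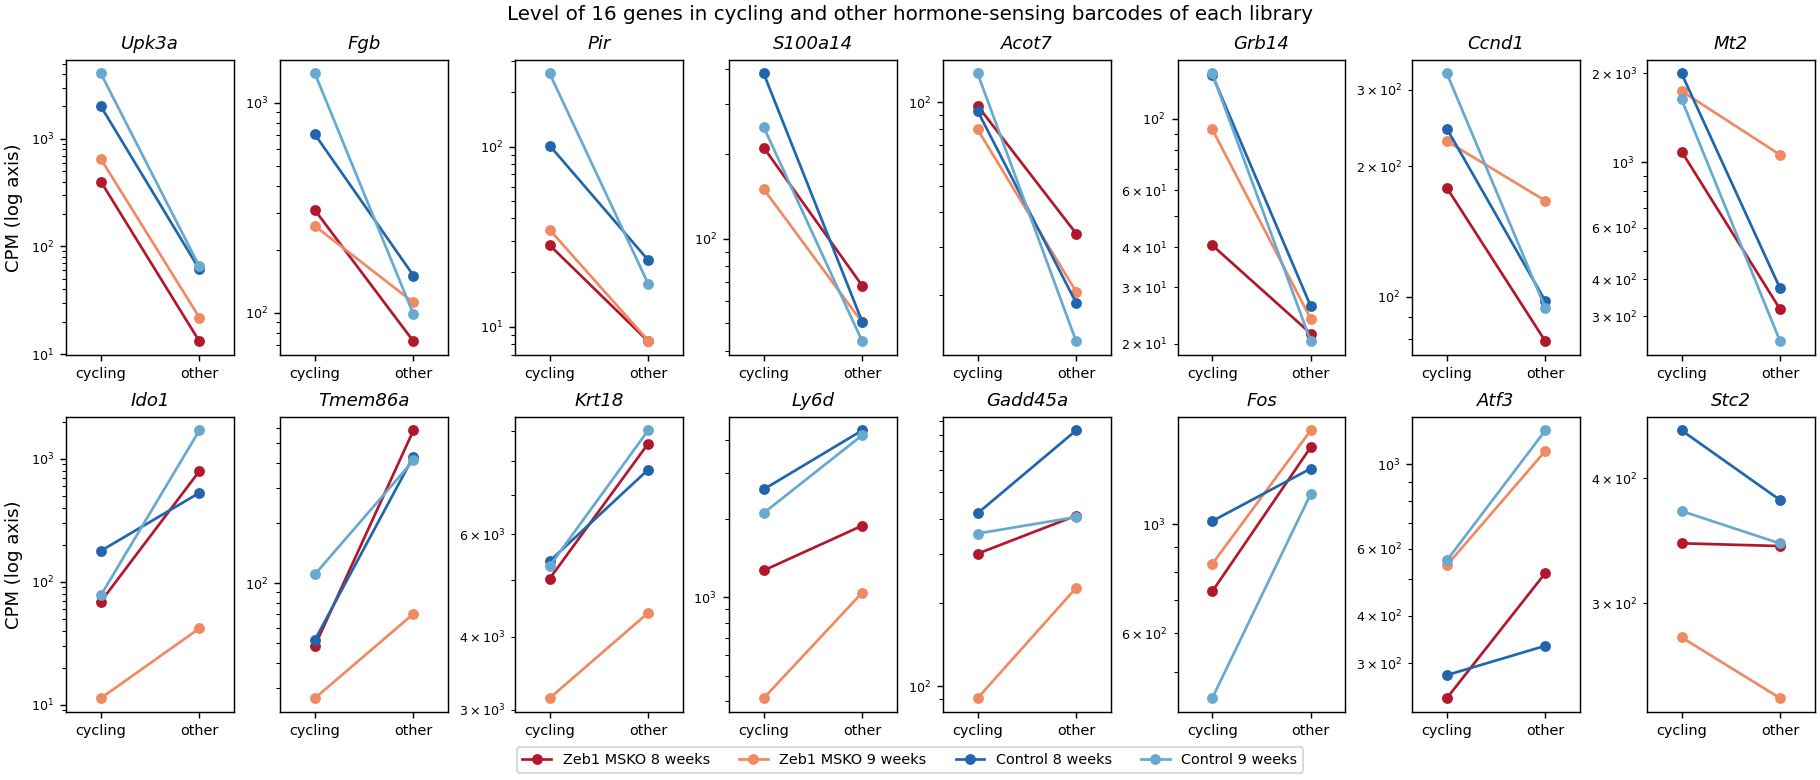
Level (CPM, log axis) of 16 genes in cycling (left) and other (right) hormone-sensing barcodes, 1 line per library. Upk3a, Fgb, Pir, S100a14, Acot7, Grb14, Ccnd1 and Mt2 are higher in cycling barcodes in all 4 libraries, the lower panels from Ido1 to Atf3 are lower in all 4, and Stc2 shows little difference.

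Whether these rises were particular to the hormone-sensing lineage was tested as an interaction of cycling with lineage against luminal progenitor barcodes of the same libraries. Of 12408 genes tested with edgeR, 132 had a higher (1.06%) and 264 a lower (2.13%) cycling effect in hormone-sensing barcodes. With DESeq2 size factors in place of TMM scaling the split was 203 and 179, and the median over all genes was -0.01 in place of -0.11. Leaving out the 8-week libraries, 246 genes were called when the control was dropped, and the split was 266 and 132 when Zeb1 MSKO was. Upk3a had 1.09 ± 1.59 CPM in cycling and 0.984 ± 0.215 CPM in other luminal progenitor barcodes (SD, n = 4), and its cycling effect was larger in hormone-sensing barcodes by 4.66 ± 0.46 SE on the log2 scale (edgeR adjusted p = 7.55e-08). Fgb (2.81, edgeR adjusted p = 0.00108) and Pir (2.64, edgeR adjusted p = 0.000793) had effects of the same kind, with 2.41 against 3.76 CPM and 2.35 against 3.16 CPM in cycling and other luminal progenitor barcodes. S100a14, Acot7 (1.98), Rtp4 (2.42), an interferon-induced chaperone gene, and Ccnd1 (1.05) also passed. Ccnd1 had 273 ± 114 CPM in cycling and 283 ± 127 CPM in other luminal progenitor barcodes.

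In other genes the lineages differed in the progenitor or in the resting level. Ramp1, a subunit of calcitonin gene-related peptide receptors, rose in cycling hormone-sensing barcodes (1.22) and had 70.3 ± 24.5 CPM in cycling against 178 ± 68.1 CPM in other luminal progenitor barcodes (interaction 2.61, edgeR adjusted p = 1.19e-07). Ptn, pleiotrophin, had 5743 and 892 CPM in cycling barcodes of the Zeb1 MSKO libraries and 4023 and 4535 CPM in those of the controls, against 6814, 779, 6862 and 6373 CPM in the others. In luminal progenitor barcodes it was 336 ± 125 CPM in cycling and 106 ± 46 CPM in other barcodes (interaction -2.21, edgeR adjusted p = 1.25e-08). The mitotic kinase gene Aurka had a nearly equal cycling level in both lineages, 30.9 ± 10.6 CPM in hormone-sensing and 32 ± 6.31 CPM in luminal progenitor barcodes. Its level in the other barcodes was 9.37 ± 1.13 CPM in hormone-sensing and 0.934 ± 0.358 CPM in luminal progenitor barcodes (interaction -3.42, edgeR adjusted p = 8.34e-07). Mad2l1, a spindle checkpoint gene (-2.01), and the histone variant gene H2afv (-1.34) had smaller rises in the hormone-sensing lineage as well.

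Of 568 genes that were called higher, reached 20 CPM and were higher in all 4 libraries, 45 also had a larger and 30 a smaller cycling effect than in luminal progenitor barcodes, where 1.06% and 2.13% of all tested genes did. Both tests use the same hormone-sensing sums, so these counts are a description. Of the 45, 38 were outside the division lists. These lists do not hold every gene of division, and the 38 included Cdkn3, named above. Of the 655 such genes called lower, 94 had a larger fall. The 45 included the Notch feedback gene Nrarp (2.35), Fam25c (1.57) and Idi1, an isoprenoid synthesis gene (1.52).

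Immediate early genes, which respond within minutes to growth factors and to tissue dissociation, were lower in cycling barcodes. Of 18 such genes 17 passed, 11 fell and none rose, with a median of -0.57, where 7.98% of all tested genes fell. In the lineage test 1 of 17 had a higher and 1 a lower cycling effect in hormone-sensing than in luminal progenitor barcodes, with a median of 0.06. Fos had 729 and 829.6 CPM in cycling barcodes of the Zeb1 MSKO libraries and 1014 and 443 CPM in those of the controls, against 1433, 1550, 1296 and 1152 CPM in the others. Every cycling sum lay below every other sum (log2 -1.01 ± 0.11 SE, edgeR adjusted p = 1.17e-13). Atf3 (-1.01), Fosb (-0.94), Junb (-0.78), Klf2 (-1.07) and Egr1 (-0.72) fell as well, and Jun had a log2 difference of -0.19 (edgeR adjusted p = 0.259). Against depth-matched barcodes 15 passed the filter, 10 fell and the median was -0.67, where 467 of all 7325 tested genes fell.

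Genes of p53 signalling and growth arrest were in part lower. Of 19 tested 5 fell and none rose, with a median of -0.19, and 3 fell when the Zeb1 MSKO library of 9 weeks was left out. Of all tested genes 7.98% fell in the main test, and 688 of 11265 fell without that library. Gadd45a, a stress sensor, had 299.9, 90.6, 419 and 354 CPM in cycling barcodes against 411, 226, 833 and 406 CPM in the others (log2 -0.92 ± 0.12 SE, edgeR adjusted p = 1.28e-09). It was lower in each library, though libraries overlapped. Trp53inp1 (-1.24), Gadd45b (-0.95), Klf4 (-0.91) and the antiproliferative gene Btg2 (-0.57) fell. Btg2 and Gadd45b did not pass without the Zeb1 MSKO library at 9 weeks (edgeR adjusted p of 0.0629 and 0.0514).

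Several metabolic and surface genes fell. Tmem86a, a lysoplasmalogenase-family gene, had 48.6 and 26.6 CPM in cycling barcodes of the Zeb1 MSKO libraries and 52.1 and 111 CPM in those of the controls, against 581, 70.3, 430.1 and 411 CPM in the others (log2 -2.48 ± 0.17 SE, edgeR adjusted p = 1.08e-23). Ido1, which degrades tryptophan, had 68.9, 11.3, 178 and 77.5 CPM against 792, 41.8, 527 and 1697 CPM (-2.85). Of the Ido1 UMIs of members 44.8% were in 1 barcode, and the value was -3.71 without called doublets and -3.53 without the control library at 8 weeks. The peptidase gene Dpep2 (-2.63), the diamine oxidase gene Aoc1 (-2.13) and the vitamin transporter gene Slc5a6 (-2.08) fell. All of these were lowest in the Zeb1 MSKO library at 9 weeks among the other barcodes, except Slc5a6. Of 14 surface and progenitor genes 12 passed, 5 fell and 1 rose, where 7.98% of all tested genes fell and 7.46% rose. Against depth-matched barcodes 3 of 10 fell, where 467 of all 7325 tested genes did. Ly6d had 1268, 412, 2592 and 2104 CPM against 1883, 1043, 4360 and 4178 CPM (-1.06 ± 0.09 SE, edgeR adjusted p = 1.22e-17). Cd24a (-0.45) and Epcam (-0.43), which are used to sort luminal cells, fell less, and Epcam did not pass against depth-matched barcodes (-0.20). Cd44 rose (1.52), not passing against depth-matched barcodes (edgeR adjusted p = 0.0782).

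Of the markers of other cell types, those of fibroblasts fell as a set, and the other sets had few calls in the main test. Of all genes tested there 7.46% were higher and 7.98% lower. All 7 tested of 8 fibroblast markers fell, and Pdgfra, which was not tested, had no UMI in the members. Their sum was 134 and 14.2 CPM in cycling barcodes of the Zeb1 MSKO libraries at 8 and 9 weeks and 38.4 and 5.54 CPM in those of the controls, against 807, 42.1, 394 and 40.8 CPM in the others. The sums were highest at 8 weeks in both states. Against depth-matched barcodes 1 of the 8 passed the filter, and it fell. The collagen genes Col1a2 (-5.70) and Col3a1 (-4.02) and Clec3b (-4.39) thus led the genes that fell, and the part of RNA from other cells in this was not tested. Luminal progenitor markers outside the panel summed to 608, 451, 523 and 244 CPM in cycling against 525, 387, 533 and 243 CPM in other barcodes, and of 8 tested 1 rose (Lalba, 66.7% of its member UMIs in 1 barcode) and 1 fell (Glycam1). Without called doublets none of 6 tested was called, and Glycam1 stood at -0.59 (edgeR adjusted p = 0.839). Against depth-matched barcodes 2 of 5 luminal progenitor markers fell. Basal markers summed to 344, 247, 109.6 and 77.5 CPM against 505, 171, 234 and 146 CPM, with 1 of 11 lower. In the depth-matched comparison 4 of 7 fell, where 467 of all 7325 tested genes did. The matched barcodes themselves held 448, 305, 672 and 383 CPM of basal markers. When the 9-week Zeb1 MSKO library was left out 3 of 11 fell, where 688 of all 11265 tested genes did. Of 4 tested endothelial markers 1 fell (Fabp4), and none of 2 without called doublets, and of 8 immune markers the only one tested, Cd74, did not pass (0.19).

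Between genotypes, cycling hormone-sensing barcodes gave 3880 testable genes, and edgeR called none (0%), with 131 genes at an unadjusted p under 0.05. In simulated counts this test recovered 17.5% of changes of 1 log2 unit, so a lack of calls does not show that the genotypes are alike. DESeq2 called 5. Upk3a lay below the controls in each Zeb1 MSKO library (-2.42 ± 0.45 SE, edgeR adjusted p = 0.531), as did Fgb (-1.82) and Pir (-2.30), and none of the 3 was called. In the other barcodes the Upk3a difference was -1.80 (edgeR adjusted p = 1). Hp, haptoglobin, had 563 and 229.9 CPM in Zeb1 MSKO and 71.2 and 94.1 CPM in control cycling barcodes (2.27, edgeR adjusted p = 0.531). Mfsd2a, a lysophospholipid transporter gene, had 8.11 and 11.9 CPM in Zeb1 MSKO and 54.8 and 60.9 CPM in control cycling barcodes (-2.24), and the serine protease gene Prss22 had 24.3 and 16.4 CPM in Zeb1 MSKO and 93.2 and 116 CPM in control ones (-2.38). Neither was called. The genes named here were chosen by low p among genes with 1 direction at both ages. A lack of overlap between genotypes follows largely from that choice and is no further evidence. Leaving out 1 library gave 156 called genes without the Zeb1 MSKO library at 8 weeks, 15 without that at 9 weeks, and 1 and 8 without the control libraries at 8 and 9 weeks, where the lone library of a genotype is assumed to vary like the pair of the other.

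Whether the cycling effect itself differed by genotype was tested as an interaction, with 30 of 12342 genes called by edgeR (0.243%), 20 with a larger and 10 with a smaller log2 effect in Zeb1 MSKO. With DESeq2 size factors the split was 18 and 15, and DESeq2 itself called 1. Dropping the 9-week Zeb1 MSKO library left 11 calls, and dropping the 8-week control library 17. Stmn1 had 896 and 682 CPM in cycling barcodes of the Zeb1 MSKO libraries and 723 and 748 CPM in those of the controls, which overlapped. In the other barcodes Stmn1 had 27.6 and 81.5 CPM in Zeb1 MSKO and 18.3 and 7.89 CPM in control libraries (interaction -1.90 ± 0.24 SE, edgeR adjusted p = 3.91e-11). It was -0.74 against depth-matched barcodes and -0.92 when the 9-week Zeb1 MSKO library was dropped, where it was not called (edgeR adjusted p of 0.942 and 0.717), nor did DESeq2 call it. Mt2 (-1.33, edgeR adjusted p = 5.02e-07) had 317 and 1059 CPM in other barcodes of Zeb1 MSKO and 373 and 247 CPM in those of control libraries, and the Zeb1 MSKO library at 9 weeks stood above the other libraries. Its call was lost with DESeq2, against depth-matched barcodes (-0.76) and when that library was left out (-0.85). Lgals7 (2.56) had 34.8% of its member UMIs in 1 barcode. All 47 Cxcl10 UMIs of the members were in 1 barcode of the control library at 8 weeks. The Upk3a interaction was -0.55 (edgeR adjusted p = 0.819). Fgb, taken up here after its values were seen, had an interaction of -1.41 (edgeR adjusted p = 5.4e-06). That of Fgb was not called when either 9-week library was left out, at -1.00 for Zeb1 MSKO and -0.74 for the control (edgeR adjusted p of 0.714 and 0.697).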

How the data were processed

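The deposited file held UMI counts per gene and barcode for all 4 libraries, which the submitters' processing notes tie to Cell Ranger 2.1.0 and build mm10; no source names a depth adjustment between libraries. No barcode had fewer than 2566 UMIs, and none was removed here. The members and gene lists were chosen with earlier results of these data known. Counts were summed per library and class and tested with edgeR 4.0.16 (R 4.3.3, TMM scaling, filterByExpr, quasi-likelihood test, Benjamini-Hochberg adjustment), with the library as a block within libraries and without a block between genotypes; the gate genes were left out of tests that compare cycling with other barcodes. SE is the log2 fold change divided by the root of F. CPM values are counts over the summed UMIs of a class. DESeq2 1.42.0 was the alternative. Doublets were scored per library (scikit-learn 1.9.0; 2 simulated doublets per barcode, 2000 variable genes, 30 components), kept in the main values and left out in an alternative. The method was tested on simulated counts with a spread set in advance. Changes of 1 and 2 log2 units were recovered in 17.5% and 83.3% of changed genes between genotypes. In the genotype interaction these shares were 4% and 34%. Depth-matched comparison used 5 barcodes per member, with called doublets kept. The matched barcodes held 470, 544, 3330 and 324 CPM of luminal progenitor markers outside the panel in the 4 libraries in the usual order. All other hormone-sensing barcodes held 525, 387, 533 and 243 CPM. In the control library at 8 weeks endothelial and immune markers stood at 236 and 160 CPM in matched barcodes. They stood at 53.5 and 33.2 CPM in all others of that library. Depth matching thus also changed the admixture of other cell types there. Named genes were, in each cycling contrast, called genes of at least 20 CPM with 1 direction in all 4 libraries (the 12 largest rises inside and outside the cycle lists and the 15 largest falls), called list members, the 10 lowest p between genotypes and the 6 lowest p per interaction; genes named together with Upk3a, those in the split by Upk3a and those shared by the state and lineage tests were chosen after their values were seen. No label states that the 2 libraries of a genotype are separate animals. The p-values between genotypes then measure only the spread between libraries, which may be technical. Where the library is a block, p-values set the difference within a library against a spread that edgeR estimates partly from all genes together. They are therefore not a measure of how far the difference of 1 gene varied over the 4 libraries. Very small values can go with unequal differences between libraries.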

Additional observations from a re-analysis of the deposited data

Results flagged for a closer look

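The cycling effect differed between genotypes, by edgeR's interaction test, for 6 genes chosen by lowest p, given as the log2 effect in Zeb1 MSKO minus that in control libraries. These were Stmn1 (-1.90), Cxcl10 (-13.21), Sbp (4.87), Lgals7 (2.56), Mt2 (-1.33) and Hp (1.74). Lgals7 kept its call under all 12 alternatives run. Stmn1 and Mt2 lost it with DESeq2, against depth-matched barcodes and when the 9-week Zeb1 MSKO library was dropped. Hp lost it with DESeq2, against depth-matched barcodes (1.10) and without either 8-week library (0.83 without Zeb1 MSKO, 0.93 without the control), and was 3.19 without called doublets. Cxcl10, an interferon-induced chemokine gene, had 0 and 0 CPM in cycling barcodes of the Zeb1 MSKO libraries at 8 and 9 weeks and 129 and 0 CPM in those of the controls, with all its UMIs in 1 barcode, so its value describes that barcode. Sbp, a secreted protein gene known from the mouse prostate, had 0 and 6.8 CPM in cycling barcodes of Zeb1 MSKO and 43.8 and 11.1 CPM in those of control libraries, against 0.425, 0.752, 79.3 and 183 CPM in the other hormone-sensing barcodes. Hp had 563 and 229.9 CPM in cycling barcodes of Zeb1 MSKO and 71.2 and 94.1 CPM in those of control libraries, against 377, 593, 485 and 231 CPM in the others.

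The cycling effect differed between lineages, by the same test, for 10 genes, given as the log2 effect in hormone-sensing minus that in luminal progenitor barcodes. It was larger for Upk3a (4.66), Fgb (2.81), Pir (2.64), Ramp1 (2.61), Rtp4 (2.42) and Cdkn3 (2.41). It was smaller for Aurka (-3.42), Ptn (-2.21), Mad2l1 (-2.01) and H2afv (-1.34). Cdkn3 had 68.9 and 28.3 CPM in cycling barcodes of Zeb1 MSKO and 27.4 and 77.5 CPM in those of control libraries, and its call was lost without called doublets, against depth-matched barcodes and without the control library at 8 weeks.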

How the results depend on the processing

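Of the values for genes named between cycling and other hormone-sensing barcodes, 475 kept direction and call under the alternatives run and 17 lost the call; for lineage the counts were 210 and 11, and for the genotype interaction 57 and 13, with 2 that changed sign (Cxcl10 at 0.0843 without called doublets, Sbp at -3.78 without the Zeb1 MSKO library at 9 weeks, its range leaving out 1 library being -3.78 to 7.19). Between genotypes 81 stayed uncalled and 38 passed under an alternative. Genes called between states, 1751, were 1113 with DESeq2, 1161 without called doublets, 1080 against depth-matched barcodes, 576 with no replicate block, and 1217 to 1639 leaving out 1 library. Between genotypes, 0 became 5 with DESeq2, 56 with no filter on low counts, 1 with at least 3 cycle UMIs and 1 to 156 leaving out 1 library; depth matching does not apply there. Age as a replicate block gave 9 calls; same-age libraries deviated together with r = 0.192 across 3880 genes in 2 pairs, and ages do not establish a pairing. The genotype interaction, 30, was 1 with DESeq2, 19 with no filter and 11 to 34 leaving out 1 library. The lineage interaction, 396, was 249 with DESeq2, 151 against depth-matched barcodes and 246 to 421 leaving out 1 library. The causes were not tested. Leaving out 1 library, the share difference between genotypes ran from 0.414 to 1.51 percentage points, that between lineages from -2.59 to -0.435, and the log2 ratio of summed cycle genes from 0.51 to 1.74. An alternative limited to barcodes with at most 10% mitochondrial UMIs was chosen after seeing the data. The control library at 9 weeks held 8 members, which limits every value it gives.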
